A study of Homo sapiens with 3 samples.

Results

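SPN encodes CD43 (leukosialin), and its transcript carried a dense group of A-to-G positions in THP-1 cells. Every position that the deposited site lists give to SPN was taken, which came to 59 positions of 16820 over 4245 genes. The gene was chosen because of the editing levels in those lists, so its levels are given as a description. The group of sites with the highest levels in the lists against the empty vector spans 142 bases of chromosome 16 and is called the stretch here.

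The assay was HyperTRIBE, which fuses a hyperactive catalytic domain of ADAR (ADARcd) to a protein that binds RNA. Adenosines of the RNA that the fusion meets become inosines, which are read as G. THP-1 is a human monocytic leukemia line, and DDX41 is an RNA helicase of the DEAD-box family whose gene is mutated in some myeloid leukemias. All 3 groups received a pGK-GFP retrovirus made in 293T cells: it carried DDX41 fused to ADARcd (DDX41-ADARcd), ADARcd alone or no transgene (empty vector), and total RNA was taken at day 7. Each group was 1 library of transduced cells, so there was no replicate error, and every test compares the reads of libraries and not conditions. The labels do not say which ADAR gene the domain came from. Of 13 genes that mark monocytic cells of this kind, 7 had a listed position, against 0 of 10 markers of other cell types; a gene with no listed position may still be expressed.

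CD43 is a sialomucin of leukocytes, heavily O-glycosylated outside the cell and linked inside to moesin and ezrin, and it takes part in cell adhesion and in keeping cells apart. ADAR enzymes act on double-stranded RNA. In human transcripts most of that substrate comes from Alu elements, repeats that descend from 7SL RNA, where copies in opposite orientation fold onto each other. ADAR enzymes are known to disfavour a G directly before the edited A.

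The first of the edited segments of the stretch is shown here because 2 of its 6 most edited A lie in it. It is read 5′ to 3′ on the plus strand, which is the transcribed strand, from GENCODE 29 transcripts on GRCh38, and capitals mark the A that were listed as edited, bases 253 and 258 after the stop codon.
Start of the stretch, chr16:29665170-29665199: tcagcttcccgagtAactgAgattacaggc

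SPN (ENSG00000197471.11) lies on the plus strand of chromosome 16 at 29662979 to 29670876 on GRCh38. Its coding part runs from 29663729 to 29664931, and the 3′ UTR of its longest transcript follows up to 29670490, over 5559 bases. The stretch lies in that 3′ UTR, 253 to 394 bases after the stop codon, and bases after the stop codon are used below to name sites. A shorter coding transcript ends 596 bases after the stop codon and holds the stretch too. A gene on the same strand, AC009086.2, overlaps most of SPN, but the listed sites lie in its introns.

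Sequence related to 7SL RNA took up 1985 of the 5559 bases of the 3′ UTR (35.7%), in 9 pieces found by alignment to RN7SL1, the gene of 7SL RNA. Of these, 4 were antisense to 7SL and 5 were sense. The stretch lay inside the first piece, which was antisense and covered bases 143 to 419. Sense copies that align to the stretch and its surroundings followed further down the same transcript, the nearest 895 bases away (78.6% identity over 70 aligned bases) and the most similar 4231 bases away (82.7% over 312 aligned bases). No repeat annotation was used, and how reads that match several copies of a repeat were treated is not given in the sources used here.

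**Figure D1:**
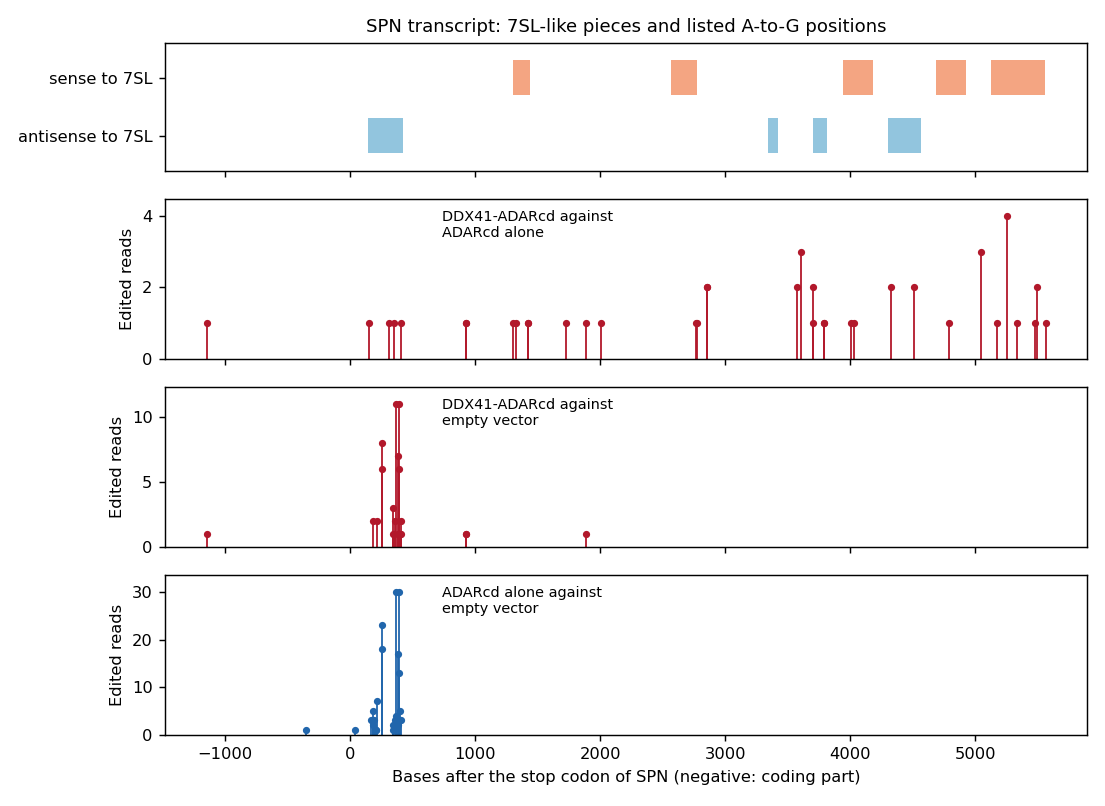
Position along the SPN transcript in bases after the stop codon (x axis) against the 9 pieces related to 7SL RNA (top panel) and the number of edited reads at each listed site (lower panels, 1 per list). Against the empty vector the edited reads of both libraries crowd into the first antisense piece, with up to 11 per site in DDX41-ADARcd and up to 30 in ADARcd alone; the sites of DDX41-ADARcd against ADARcd alone spread over the 3′ UTR with at most 4.

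In the stretch, 57 of 787 reads were edited over 11 sites in DDX41-ADARcd, a pooled level of 7.24% (95% exact interval 5.53 to 9.28). In ADARcd alone, 143 of 1419 reads were edited over 11 sites, 10.1% (8.56 to 11.8). In the empty vector no read was edited at these sites, of 128 and 130 reads. Both lists against the empty vector hold only positions with 0 edited reads there. That 0 was set by the selection of the list and gives no limit on editing in the empty vector. The intervals cover counting error only. PCR copies of 1 molecule cannot be told apart without molecular identifiers, and sites a few bases apart share reads.

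At the sites of the lists against the empty vector, the stretch held 82.6% of the 69 edited reads of SPN in DDX41-ADARcd and 81.2% of the 176 in ADARcd alone. With the list of DDX41-ADARcd against ADARcd alone added, DDX41-ADARcd had 113 edited reads, of which 58 lay in the stretch (51.3%). No second list gives edited reads of ADARcd alone. Its editing where the empty vector had fewer than 10 reads is not seen. Of its 30 A, 13 were listed in any list and 10 in both libraries against the empty vector. At those 10 shared positions the pooled level was 7.69% in DDX41-ADARcd (56 of 728 reads, 5.86 to 9.87) and 10.7% in ADARcd alone (139 of 1301 reads, 9.06 to 12.5).

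The highest level in the stretch, in both libraries, was at base 368. It was edited in 11 of 65 reads in DDX41-ADARcd (16.9%, 8.76 to 28.3) and in 30 of 124 in ADARcd alone (24.2%, 17.0 to 32.7), against 0 of 12 in the empty vector. Base 387 followed with 11 of 73 reads in DDX41-ADARcd (15.1%, 7.77 to 25.4) and 30 of 137 in ADARcd alone (21.9%, 15.3 to 29.8), against 0 of 14 in the empty vector. Base 386 was edited in 7 of 73 reads in DDX41-ADARcd (9.59%) and 17 of 136 in ADARcd alone (12.5%), while base 385 had 1 of 72 in DDX41-ADARcd and 2 of 135 in ADARcd alone. The level climbed over these adjacent A in both libraries, while the number of reads behind them hardly differed.

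Intermediate levels were found at the other 3 sites. In the segment at the start of the stretch, base 258 was edited in 8 of 93 reads in DDX41-ADARcd (8.60%, 3.79 to 16.2) and in 23 of 160 in ADARcd alone (14.4%, 9.34 to 20.8). At the other end of the stretch, base 394 was edited in 6 of 77 reads in DDX41-ADARcd (7.79%, 2.91 to 16.2) and in 13 of 137 in ADARcd alone (9.49%, 5.15 to 15.7). The intervals of these sites overlap in each library. Base 253, in the same segment as base 258, was edited in 6 of 94 reads in DDX41-ADARcd (6.38%) and in 18 of 162 in ADARcd alone (11.1%).

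These 6 sites had 10 or more edited reads in ADARcd alone, and all 6 had a lower level in DDX41-ADARcd. A choice by the reads of ADARcd alone favours that direction: over all 14 shared sites, 10 were lower and 4 higher in DDX41-ADARcd. At the 6 sites the ratio of the levels, DDX41-ADARcd over ADARcd alone, was 0.574 to 0.821 with a median of 0.694. The difference was within the counting error at each of them, with unadjusted p from 0.233 to 0.805 in a two-sided Fisher's exact test on the reads. With no replicate library, a difference of this size cannot be told apart from one between any 2 cultures.

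Another 8 sites were listed for both libraries at lower levels, 1.25 to 5.08% in DDX41-ADARcd and 1 to 3.40% in ADARcd alone. Of these, 4 were lower and 4 higher in DDX41-ADARcd. Bases 345, 359 and 405 had 3, 2 and 2 edited reads in DDX41-ADARcd, against 2, 3 and 3 in ADARcd alone. Bases 185, 217 and 401, outside the stretch, had 2, 2 and 1 edited reads in DDX41-ADARcd, against 5, 7 and 5 in ADARcd alone. Base 346 had 1 edited read in each library.

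The outermost sites of the stretch had higher levels than the nearest sites outside it. The outermost sites inside it had 6.38% and 7.79% in DDX41-ADARcd and 11.1% and 9.49% in ADARcd alone. The nearest listed sites of both libraries outside it, bases 217 and 401, had 2 of 133 and 1 of 80 reads edited in DDX41-ADARcd and 7 of 209 and 5 of 147 in ADARcd alone, none above 3.40%. The border was drawn with these levels known. Sites with low levels also lay inside it, such as bases 346 and 385. These had 1.69% and 1.39% in DDX41-ADARcd and 1% and 1.48% in ADARcd alone.

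**Figure D2:**
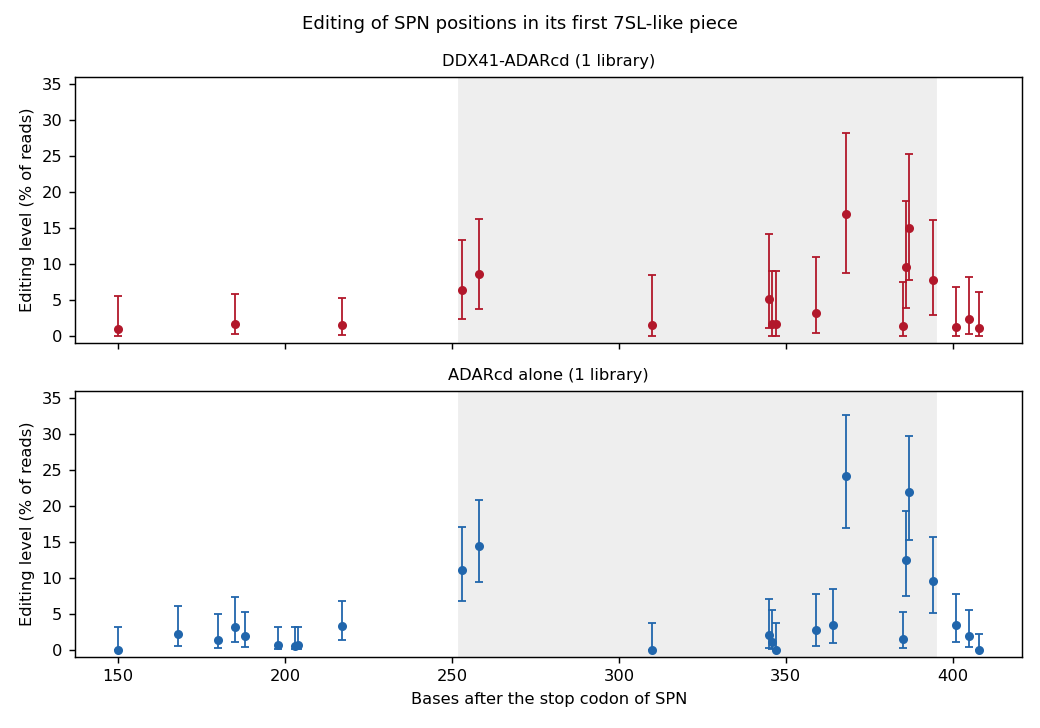
Editing level in percent (y axis) of SPN sites near the stretch by bases after the stop codon (x axis), in DDX41-ADARcd and in ADARcd alone, with exact 95% intervals as bars. The highest points, at bases 368 and 387, reach 16.9% and 15.1% in DDX41-ADARcd and 24.2% and 21.9% in ADARcd alone, and the intervals of the 2 libraries overlap at each shared site.

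ADARcd alone had 9 SPN sites that were not listed for DDX41-ADARcd against the empty vector. Base 364 had 4 edited reads of 118, bases 168 and 188 had 3 each of 141 and 164, and base 180 had 2 of 144. The other 5 had 1 edited read each. In the opposite direction, 6 sites were listed for DDX41-ADARcd and not for ADARcd alone, at position 29663786 in the coding part and at bases 347, 408, 923, 928 and 1883. Each of those 6 had 1 edited read.

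Reads with a base that was neither A nor G at the listed sites give a measure of read error. Over the SPN sites of the lists against the empty vector, they came to 1 of 1654 reads in DDX41-ADARcd (0.0605%) and 3 of 3410 in ADARcd alone (0.0880%). In the empty vector they came to 2 of 265 reads (0.755%) and 2 of 313 reads (0.639%) at the same sites. A site is listed only with 1 or more edited reads, so its level is not compared with these rates. The lowest level of a site with 1 edited read was 0.926% in DDX41-ADARcd and 0.503% in ADARcd alone, which is set by the depth of the site.

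Against the empty vector, 11 of the 20 SPN sites of DDX41-ADARcd had 2 or more edited reads (55%), where 18.5% of all listed sites did, and 6 had 5 or more (30%), where 0.853% did. For ADARcd alone, 17 of 23 had 2 or more (73.9%), where 25.2% of all listed sites did, and 9 had 5 or more (39.1%), where 4.05% did. The gene was chosen on these levels, so nothing is read from the difference. Sites that had at least 5 edited reads and reached 5% were rarer, 0.398% of all listed for DDX41-ADARcd and 1.45% for ADARcd alone. SPN had 6 in each, and no other gene had more, of 7 genes with such a site in DDX41-ADARcd and 75 in ADARcd alone.

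None of the 20 SPN sites of DDX41-ADARcd passed the Fisher's exact test against the empty vector with Benjamini-Hochberg adjustment over 3512 sites, and 0% of all tested sites did; at an unadjusted threshold it was 0 of SPN and 0.0854% of all. None of the 23 SPN sites of ADARcd alone passed, where 0.203% of 6412 did; unadjusted, it was 0 of SPN, with a smallest p of 0.0681, and 0.546% of all. The depth of SPN in the empty vector, 10 to 20 reads per site, limits this test. At base 387, with 14 reads in the empty vector, an unadjusted p under 0.05 would need 18 edited reads of 73 in DDX41-ADARcd (24.7%) and 32 of 137 in ADARcd alone (23.4%).

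For DDX41-ADARcd against ADARcd alone, 50 SPN positions were tested: the 36 of the deposited list, which have 0 edited reads in ADARcd alone, and the 14 shared ones. None passed in either direction with adjustment over 9227 positions, where 0% passed as higher and 0.282% as lower in DDX41-ADARcd. The smallest adjusted p of Fisher's exact test in SPN was 0.560. Unadjusted, 2 of 50 were higher in DDX41-ADARcd (4%), where 0.434% of all positions were, and 0 were lower, where 0.423% of all positions were. Only shared positions could come out lower, 14 of SPN and 388 of other genes before the minimum of reads. The shares called lower are thus over positions most of which could not be. The rule that chose SPN used these counts too.

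Of the 36 positions of the deposited list, 2 lay in the stretch. A position with an edited read in ADARcd alone cannot enter that list, so the shared sites of the stretch were left out by selection. Nothing is read from the difference in place. Within the shorter transcript lay 5 of the 36, and 31 lay past its end. Those 31 had 45 edited reads of 1319 in DDX41-ADARcd (3.41%) and 0 of 2285 in ADARcd alone. That 0 was set by the selection of the list and gives no limit on distal editing in ADARcd alone. The 3.41% likewise leaves out positions without an edited read in DDX41-ADARcd. Of the 36, 10 had 2 or more edited reads (27.8%), where 16.1% of all positions of that list did, and these 10 were all past that end. The other 26 had 1 edited read, and none had 5 or more, where 0.0769% of all positions of the list did and 0.0577% also reached 5%.

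The distal sites with 3 or more edited reads were bases 3605, 5046 and 5257, and the sequences around the first and the last of them are shown with the listed A in capitals, from the same transcripts and strand.
Base 3605, chr16:29668526-29668546: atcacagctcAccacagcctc
Base 5257, chr16:29670178-29670198: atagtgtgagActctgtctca
Base 5257 was edited in 4 of 31 reads in DDX41-ADARcd (12.9%, 3.63 to 29.8), against 0 of 63 in ADARcd alone (unadjusted p = 0.0103, two-sided Fisher's exact test). Base 5046 was edited in 3 of 23 reads in DDX41-ADARcd (13.0%, 2.78 to 33.6), against 0 of 72 in ADARcd alone (unadjusted p = 0.0128, same exact test). Base 3605 was edited in 3 of 43 reads in DDX41-ADARcd (6.98%, 1.46 to 19.1), against 0 of 69 in ADARcd alone. The first 2 are the SPN positions with an unadjusted p under 0.05, and neither held after adjustment.

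The other 7 distal sites with more than 1 edited read had 2 each, of 10 to 48 reads in DDX41-ADARcd, with 0 in ADARcd alone. They were positions 29667784, 29667785, 29668505, 29668637, 29669257, 29669440 and 29670423. With 2 edited reads, the highest level, 20% at 29669257, rests on 10 reads. Of the 31 positions past the end of the shorter transcript, 18 lay in pieces related to 7SL RNA.

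The median number of reads was lower past the end of the shorter transcript in both libraries. At the positions of the same list, DDX41-ADARcd had a median of 36 reads past that end and 88 before it. ADARcd alone had 72 past it and 116 before it. The medians before it rest on 5 positions. Reads did not fall at the end itself. The first listed positions past it, bases 923 and 928, had 86 and 82 reads in DDX41-ADARcd and 156 and 149 in ADARcd alone. The ratio of reads between the libraries was alike on both sides, 0.571 past the end and 0.6 before it. Positions with fewer than 10 reads in the empty vector do not appear in the lists against it, whatever their editing.

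**Figure D3:**
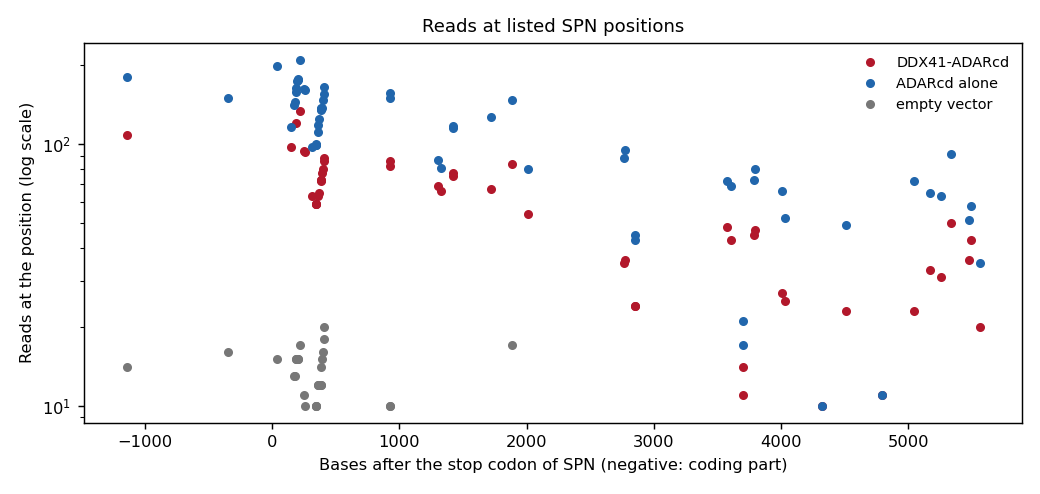
Reads per listed SPN position (y axis, log scale) by bases after the stop codon (x axis) in DDX41-ADARcd, ADARcd alone and the empty vector. The empty vector sits at 10 to 20 reads where it has listed positions. At the positions of DDX41-ADARcd against ADARcd alone, medians past base 596, where the shorter transcript ends, are 36 (DDX41-ADARcd) and 72 reads (ADARcd alone). The medians before it, 88 and 116, rest on 5 positions, and reads do not fall at base 596 itself.

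At the SPN positions of each list, the reads of DDX41-ADARcd were 0.592 times those of ADARcd alone (median, range 0.319 to 1) and 5.9 times those of the empty vector (4.4 to 9.3). With the 14 shared positions added, DDX41-ADARcd had 0.576 times the reads of ADARcd alone over 50 positions. ADARcd alone had 10.8 times the reads of the empty vector (8.61 to 16). The medians over genes with 5 or more listed positions were 0.659 (527 genes), 6.13 (220 genes) and 8.95 (414 genes) in the same order, and SPN stood at percentile 24.5, 45.5 and 70.3 of those genes. Library totals are not used here, and in bulk RNA fewer cells with SPN and less SPN RNA per cell cannot be told apart.

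In the coding part, 2 positions were listed, with 1 edited read each. Position 29663786 had 1 of 108 reads in DDX41-ADARcd, against 0 of 180 in ADARcd alone, and would change serine to glycine (S20G). Position 29664581 had 1 of 150 reads in ADARcd alone, against 0 of 16 in the empty vector, and would change threonine to alanine (T285A). Amino acids are counted from the start codon of the longest transcript.

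Most SPN sites lay in sequence related to 7SL RNA, counted within 50 bases of the site. That held for 75% of the 36 positions of DDX41-ADARcd against ADARcd alone, where 9.52% of all positions of that list on a transcript did. It held for 80% of the 20 positions of DDX41-ADARcd against the empty vector (2.64% of all) and for 91.3% of the 23 positions of ADARcd alone (2.38% of all). The pieces themselves held 22, 16 and 21 of these SPN positions in the same order, and they hold 34.1% of all A of the 3′ UTR. The regions also differed: 97.2% of the 36 positions lay in a 3′ UTR, where 28.6% of all positions of that list did. The SPN positions share a few pieces and are not independent of each other.

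C stood before the listed A at 16 of 36 positions of DDX41-ADARcd against ADARcd alone, at 8 of 20 of DDX41-ADARcd against the empty vector and at 11 of 23 of ADARcd alone. Over all positions of these lists on a transcript, C stood before 29.5%, 28.6% and 26.8% in the same order. The first 7SL piece, where C stood before 41.1% of the 56 A, held 4, 16 and 21 of these SPN positions. Among the 6 most edited A in ADARcd alone, described above, C stood before 0, and A, G and T before 2 each. In the segment shown, T stood before base 253 and G before base 258.

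In a predicted fold of the stretch with 100 bases on each side, 8 of 24 listed A were unpaired (33.3%), against 19 of 39 other A (48.7%). With 50 bases on each side the shares were 47.4% of listed and 64.3% of other A, and with 300 bases 34.6% and 50.9%. The fold did not hold the sense copies further down, so pairing with them was not tested.

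Sites listed for both libraries could be set beside those of other genes. Over all of them, the ratio of the level in DDX41-ADARcd to that in ADARcd alone had a median of 0.733 at the 14 SPN sites (0.368 to 2.52) and 1.26 at 388 sites of 186 other genes. The median levels were 4.13% in DDX41-ADARcd and 3.38% in ADARcd alone for SPN, and 0.304% in DDX41-ADARcd and 0.297% in ADARcd alone for the other genes. A minimum of 5 edited reads in ADARcd alone, the denominator, left 9 SPN sites with a median ratio of 0.598 and 69 sites of 50 other genes with 0.165. The order of SPN and the other genes thus turned with the choice of sites, and nothing is read from it. The reads in DDX41-ADARcd at all shared sites were 0.565 times those of ADARcd alone for SPN and 0.700 times for the other genes. The sites of SPN are neighbours on 1 transcript and count as 1 gene, and no test was made.

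**Figure D4:**
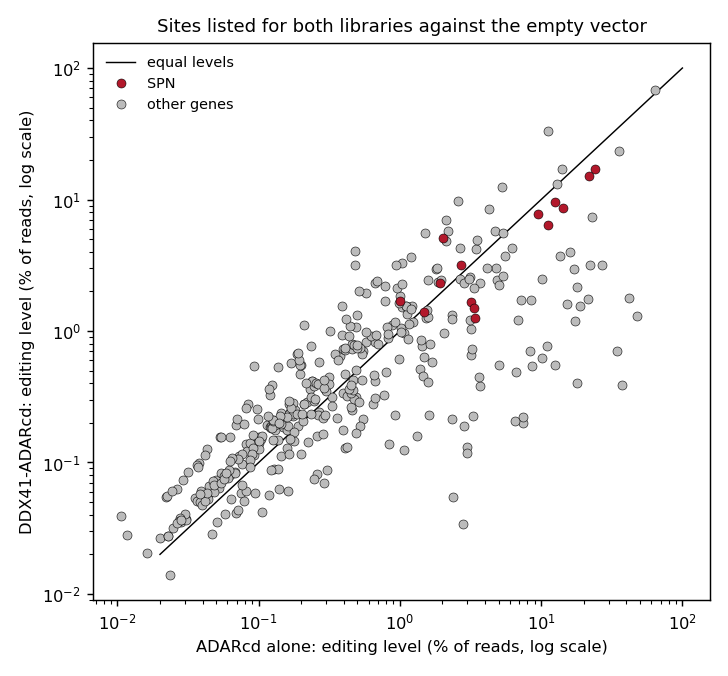
Editing level in ADARcd alone (x axis, log scale, percent) against the level in DDX41-ADARcd (y axis, log scale, percent) at all sites that the lists of both libraries share; the line marks equal levels. The 14 SPN sites have median levels of 4.13% in DDX41-ADARcd and 3.38% in ADARcd alone, above the medians of the 388 sites of other genes, 0.304% in DDX41-ADARcd and 0.297% in ADARcd alone.

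By edited reads in a single window of 142 bases, counted over sites with 2 or more, the stretch came first of 370 genes in DDX41-ADARcd against the empty vector, with 54 reads over 8 sites. ND4, a mitochondrial subunit of respiratory complex I, followed with 27, and RPL7L1, a relative of a ribosomal protein, with 22. HFM1, a meiotic helicase whose sites lie outside its annotated exons, and RN7SK, the RNA that holds the elongation factor P-TEFb, had 21 each. Both HFM1 and RN7SK also had 8 sites in the window, as many as SPN, but at lower levels. Pooled levels in these windows were 9.05% for SPN, 0.627% for ND4, 14.0% for RPL7L1, 0.420% for HFM1 and 0.0378% for RN7SK. In ADARcd alone the stretch had 142 reads and came after FTL (ferritin light chain, 824), EEF1A1 (a translation elongation factor, 654), the ribosomal protein genes RPS3A (416) and RPS2 (285), and PKM (pyruvate kinase, 163). Its 10 sites were the most of any of 666 genes there, against 1 to 5 in those genes. For DDX41-ADARcd against ADARcd alone, SPN took place 14 of 1166 genes with 7 reads at 3 distal sites. The first 5 there were HFM1 (29), GM2A, DDX41 and RNF24 (12 each) and PEX26 (11). The window has the length of the stretch and SPN was chosen by these counts, so nothing is read from its places.

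The pooled levels of SPN in the 3 lists were 2.88% for DDX41-ADARcd against ADARcd alone, 4.17% for DDX41-ADARcd against the empty vector and 5.16% for ADARcd alone. Among 341 genes with 3 or more sites in each list, RPL7L1 was the most like it, by the Euclidean distance of the log10 pooled levels in the 3 lists (0.237; levels 2.86%, 7.07% and 4.48% in the same order). PAICS, an enzyme of purine synthesis, came next at 0.343. SCAF11, a splicing-related protein, CBX5, a heterochromatin protein, and MCM4, a subunit of the replicative helicase, followed at 0.392, 0.455 and 0.456. In DDX41-ADARcd against the empty vector, the levels of PAICS, SCAF11 and CBX5 rest on only 3, 4 and 4 edited reads. RPL7L1 had 40 there, MCM4 21 and SPN 69.

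Other leukocyte glycoproteins, CD43 ligands and tail linkers, and enzymes of mucin-type O-glycans were counted in a list of 31 genes. In DDX41-ADARcd against ADARcd alone, 16 of them had 47 sites at a pooled level of 0.549%, and 9 sites had 2 or more edited reads (19.1%, where 16.1% of all listed sites did). In DDX41-ADARcd against the empty vector, 6 had 27 sites at 0.323%, and 4 had 2 or more (14.8%, where 18.5% of all did). In ADARcd alone, 6 had 63 sites at 0.497%, and 12 had 2 or more (19.0%, where 25.2% of all did). Over all genes the pooled levels of these lists were 0.760%, 0.260% and 0.377%.

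Moesin (MSN), which ties the CD43 tail to actin, had 12, 11 and 31 sites in those lists, and none of them had more than 2 edited reads. Galectin-1 (LGALS1), a lectin that binds CD43, had 11, 12 and 7 sites, with at most 1, 4 and 16 edited reads at a site. Ezrin (EZR), the other linker, had 4, 1 and 6 sites, and CD164, a sialomucin, had 3, 1 and 7. ITGB2, the beta chain of leukocyte integrins, had 1, 1 and 7 sites, with at most 3 edited reads at a site.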

How the data were processed

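The 3 deposited site lists hold counts: per the file headers, the reads of each base and the total reads at a position in an edited library and its control, with no normalization. Column names do not say which library they hold. A list titled X against Y was read as X edited and Y control; at positions that lists share, totals of the same library were equal at 3114 of 3114 and 402 of 402 positions. The submitters' processing notes name STAR 2.5, CASAVA 1.4 and FastQC 0.11.7, and a mouse build, mm10. The site caller is not given in the sources used here. Coordinates are human GRCh38: of 16820 listed positions, 15766 lie on a GENCODE 29 transcript, and 99.9% of these are A there. In the values, each listed position has 1 or more edited reads in the first library, 0 edited reads, 10 or more reads and no less than 80% A in the control.

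A level is the share of reads with G on the transcribed strand, in percent. Pooled levels are edited reads over reads, summed over sites. Intervals are exact Clopper-Pearson 95% intervals. Each position with 10 or more reads in both libraries was tested with a two-sided Fisher's exact test on the reads, with Benjamini-Hochberg adjustment over all positions of a comparison and a threshold of 0.05. For DDX41-ADARcd against ADARcd alone, the positions that both libraries share in their lists against the empty vector were added. The test was tried on simulated data. Folds came from RNAfold 2.7.2 and 7SL alignments from BLASTN 2.17.0 with an E-value limit of 1e-05; Python 3.11.15, pandas 2.3.3, SciPy 1.17.1 and matplotlib 3.10.9 were used.

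The SPN sites, the gene lists and the tests were chosen with earlier results of these data known. The comparison with 7SL RNA, the edited reads needed for a p under 0.05 and the split at the end of the shorter transcript were added after seeing the data. Named in the text are the SPN sites with 2 or more edited reads or in more than 1 list, the 5 genes nearest to SPN in pooled levels, the 5 genes with most edited reads in 1 window per list, and up to 4 members of the glycoprotein list per list. The alternatives were other minimums of reads and of edited reads, other widths around the stretch and other ways to summarise it; a wider window for the 7SL comparison was added after seeing the data. Libraries were placed in groups by the transgene in their labels, and the empty vector library by its title. Some sequences of SPN sites are not reported here.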

Additional observations from a re-analysis of the deposited data

How the results depend on the processing

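The number of SPN positions that passed the test with adjustment was 0 in all 3 comparisons under every alternative that was run. Counts of SPN sites moved with the minimum of edited reads: with 2 or more they were 10 for DDX41-ADARcd against ADARcd alone and 11 for DDX41-ADARcd against the empty vector, and with 3 or more they were 3 and 7, and 14 for ADARcd alone. With 20 or more reads in both libraries, 1 site of DDX41-ADARcd and 0 of ADARcd alone were left against the empty vector, whose depth at SPN is 10 to 20 reads. With 100 bases added on each side, the pooled level of the stretch was 5.02% for DDX41-ADARcd and 5.68% for ADARcd alone, since the added sites have low levels. The glycoprotein list had 9, 4 and 12 sites with 2 or more edited reads, against 47, 27 and 63 in all. The ratio of pooled levels in the stretch, DDX41-ADARcd over ADARcd alone, was 0.719, and 0.673 to 0.884 under the alternatives. No paired analysis was possible because each group has 1 library.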

Other observations

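Among the shared sites of other genes where ADARcd alone had at least 5 edited reads, 7 lay in sequence related to 7SL RNA, in RPL7L1, PAICS and MCM4. RPL7L1 had 16 edited of 69 reads in DDX41-ADARcd (23.2%) and 29 of 82 in ADARcd alone (35.4%) at 1 site, and 9 of 53 in DDX41-ADARcd (17.0%) and 12 of 85 in ADARcd alone (14.1%) at another. The strongest of the PAICS sites had 1 of 25 reads in DDX41-ADARcd and 10 of 62 in ADARcd alone, and that of MCM4 had 6 of 81 in DDX41-ADARcd and 26 of 114 in ADARcd alone. The ratio of DDX41-ADARcd to ADARcd alone had a median of 0.325 over these 7 sites (0.179 to 1.20), and 0.121 over 61 shared sites of other genes outside such sequence. These sites were chosen by their edited reads in ADARcd alone, the denominator, which lowers the ratios of both sets. This was looked at after the SPN values were seen, and no test was made.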
